A study of Rattus norvegicus with 8 samples.

Results

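The genes described here are those of the extracellular matrix of rat cerebral cortex, the proteases that cut it, their inhibitors and the integrins that bind cells to it. They were taken by symbol: every array probe whose RefSeq accession maps to a rat gene beginning with Col and a digit, Lama, Lamb, Lamc, Mmp, Timp, Adamts, Itga or Itgb, without Col1a1, Col1a2, Col3a1 and Itgam. This gave 37 genes on 42 probes. Of these, 21 had a probe that the scanner software marked well above background on each array of the controls, the HI animals or both, and entered the test, out of 21677 genes tested in all, 5952 of which have a symbol. The other 16 genes did not pass this filter.

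All animals were Wistar rats, and total RNA of the cerebral cortex was taken at 8 weeks of age and labelled with Cy3, with 1 Agilent array per animal. The 4 animals labelled Rice, called HI here for hypoxia-ischemia, were operated on as pups of 7 days: the carotid artery on the left was ligated and sectioned, and after recovery the pups breathed 8% oxygen for 1 h at 33 °C. The 4 controls had no insult, and the labels mention no sham operation. The cortex of HI animals came from the hemisphere opposite to the insult and that of controls from the same side, so the comparison concerns matrix genes of mature cortex away from the injured hemisphere. Nothing in the labels says that a control and an HI animal with the same number are related.

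Brain matrix consists of a basement membrane around blood vessels and under the meninges, built from type IV collagen and laminins, and of a softer matrix between cells. Fibril-forming collagens are abundant in the meninges and around large vessels and scarce in the cortex itself. Matrix metalloproteinases and ADAMTS proteases cut these proteins, TIMPs inhibit the metalloproteinases, and integrins, each a pair of an alpha and a beta chain, are the cell's receptors for matrix. After a brain injury this system takes part in opening the blood-brain barrier, in scar formation and in the regrowth of vessels and axons.

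Levels are the log2 processed intensity minus the array's 75th percentile, so a level of 0 is that percentile, and a level says nothing about 1 probe against another. Control 1 was dimmer, with a 75th percentile of 234.2 against 436.1 to 510.2 for the rest, and its correlations with the other arrays (0.905 to 0.93) were the lowest. The 4 controls shared a slide and a scan, the 4 HI arrays another, and the group therefore cannot be told apart from either. With 4 arrays a group, precision is limited by their number. The labelled tissue was checked by cell type markers: Nrgn of glutamatergic neurons, Sst of interneurons, Slc1a3 of astrocytes and Mbp of oligodendrocytes were well above background on all 8 arrays. Meningeal and choroid plexus markers were present too and differed strongly between animals. Of 12 meningeal fibroblast markers 9 were measured, all 9 highest in HI 2. Their summed level (in units of the array's 75th percentile), in which bright probes weigh most, was 11.5 to 51.5 in controls and 17.0 to 184 after HI. The 51.5 was that of control 2, where Igf2 measured 5.07 against 2.50 to 2.79 in the other controls. Igf2, Igfbp2 and Fmod were high in control 2, HI 3 and HI 4 as well as in HI 2. Col1a2, in contrast, measured 1.01 in control 2, within the 0.69 to 1.09 of the controls. Of 8 choroid plexus markers 4 were measured, with a summed level of 0.623 to 206 in controls and 1.35 to 266 after HI, high in control 2, HI 3 and HI 4. The summed level of 5 endothelial markers was 20.7 to 26.9 and 21.3 to 25.3, and that of 6 mural cell markers 3.90 to 5.66 and 3.76 to 5.92, both overlapping between groups. That of 8 microglial and macrophage markers was 46.1 in control 1, 29.2 to 31.5 in the other controls and 32.3 to 35.3 after HI. The groups of this sum overlap through control 1 alone. Taken singly, these 8 markers had a median log2 change, HI minus control, of 0.04, with 5 above 0 and 3 below. The summed level of 3 red blood cell markers was 3.43 to 4.49 in controls and 4.78 to 11.7 after HI, without overlap. A marker counted as measured only if its probe passed the filter, so none of those measured could be below background on every array. The summed levels leave out the markers that were not measured. In tissue of this kind, fewer cells of a type and less RNA per cell cannot be told apart.

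Between HI and control cortex, none of the 21 matrix genes differed at an adjusted p under 0.05 (limma, Benjamini-Hochberg over all genes tested; 0.918% of all genes did). Their changes, HI minus control on the log2 scale, ran from -0.75 to 0.62, with 10 genes above 0, 11 below and a median of -0.03, the same as the median of -0.03 over all genes tested. At an unadjusted p under 0.05 there were 2, Col2a1 and Col11a2, both lower after HI, against 10.6% of all genes (6.15% lower after HI). These were also the 2 genes whose groups did not overlap, where 14.2% of all genes had such groups (8.24% lower after HI). Both counts are near the share among all genes. The smallest adjusted p among the members was 0.244.

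**Figure D1:**
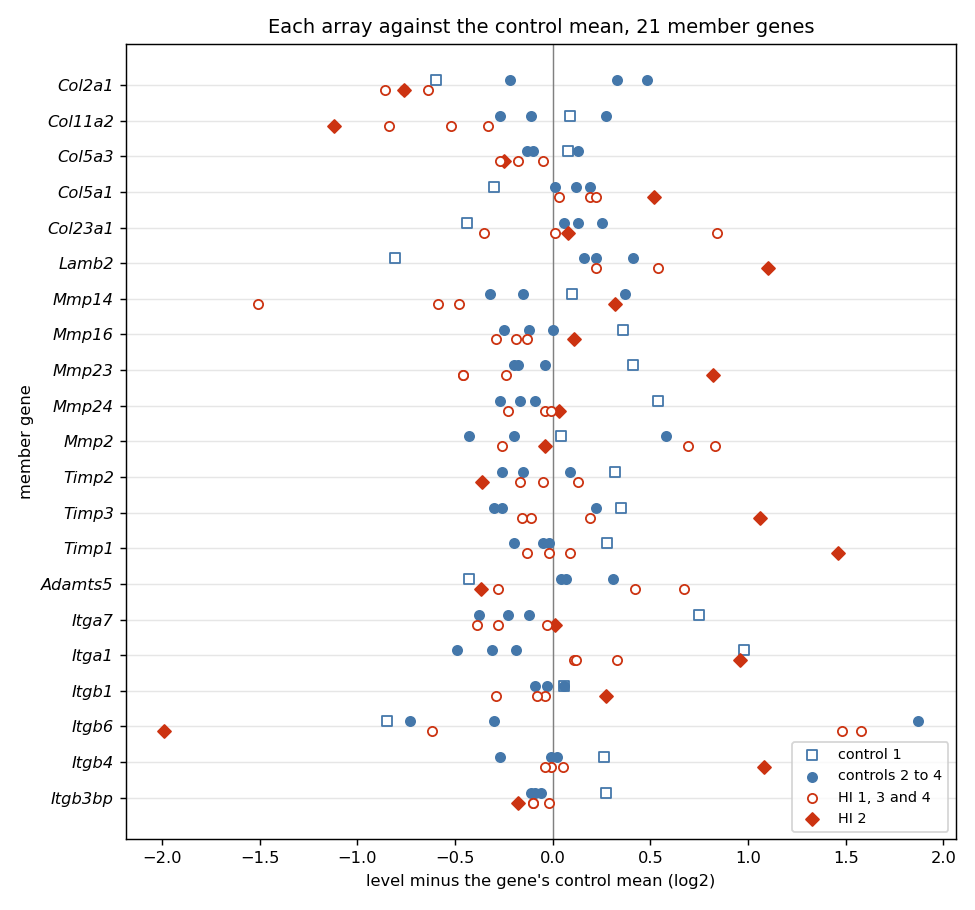
Level of each of 21 matrix genes on each array minus the mean of the 4 controls (x axis, log2); blue marks are controls and red marks HI animals, with control 1 as an open square and HI 2 as a filled diamond. For Col2a1 and Col11a2 the 4 HI arrays lie below the 4 controls, and for Timp1, Timp3, Itgb4, Mmp23 and Lamb2 the HI 2 array lies apart to the right.

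Of the 4 fibrillar collagens, all measured, 3 lay below 0 and 1 above. Col11a2 encodes a chain of type XI collagen, which copolymerises with type II collagen in cartilage fibrils. It measured 4.10, 3.90, 3.74 and 4.28 in controls 1 to 4 and 3.68, 2.89, 3.17 and 3.49 in HI 1 to 4. Every HI array was below every control, with HI 1 just under control 3. The means were 4.01 ± 0.24 and 3.31 ± 0.35 (SD, n = 4 each), a change of -0.70 (SE 0.201, 95% interval -1.16 to -0.24), or 1.62-fold lower after HI (limma, unadjusted p = 0.0083, adjusted p = 0.244). Col2a1, the chain of type II collagen itself, measured -3.42, -2.49, -3.04 and -2.34 in controls and -3.58, -3.58, -3.68 and -3.46 after HI. The HI arrays were close together, whereas the controls were spread more widely, with control 1 the lowest of them and just above the highest HI array. The means were -2.82 ± 0.50 and -3.58 ± 0.09 (SD, n = 4 each). The change was -0.75 (SE 0.235, 95% interval -1.30 to -0.21; limma, unadjusted p = 0.0126, adjusted p = 0.29). Without control 1 it was -0.95 and passed the adjusted threshold (adjusted p = 0.0314; 3.64% of all genes passed in that fit), as it did with array weights (-0.94, adjusted p = 0.0104; 6.12% of all genes), where control 1 weighed 0.03. With quantile scaling its unadjusted p was 0.0632, and after normexp background correction with quantile scaling the change was -0.28 (unadjusted p = 0.0981). A second, dimmer Col2a1 probe was well above background on 1 control array only and was not tested, so these values rest on 1 probe.

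Among the markers, Mog, a myelin glycoprotein, also had groups that did not overlap (-0.62, SE 0.216, adjusted p = 0.351 by limma). It measured 4.98, 4.35, 4.28 and 4.65 in controls and 4.22, 3.47, 4.11 and 3.99 after HI, and, like Col11a2, was lowest in HI 2 but, unlike it, highest in control 1. Mbp, myelin basic protein, measured 3.65, 6.47, 6.31 and 6.72 in controls and 6.41, 5.71, 6.25 and 6.04 after HI, lowest in control 1. The part of oligodendrocytes in the Col11a2 values was not tested.

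The promoter of Col11a2 is shown because this gene had the smallest p among the members, and that of Timp1 because its level set 1 animal apart (described with the TIMPs). Both are the 250 bases before the RefSeq start in GRCr8, given 5′ to 3′ on the strand of the gene, at chr20:4817649-4817898 (minus strand) and chrX:3771123-3771372 (minus strand). Capitals mark GC boxes (GGGCGG on either strand), which bind Sp family factors.
Col11a2: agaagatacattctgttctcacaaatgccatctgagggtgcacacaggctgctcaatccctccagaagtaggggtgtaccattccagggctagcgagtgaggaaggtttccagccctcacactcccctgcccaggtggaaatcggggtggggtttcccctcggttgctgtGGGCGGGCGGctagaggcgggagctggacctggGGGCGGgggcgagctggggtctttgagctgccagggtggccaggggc
Timp1: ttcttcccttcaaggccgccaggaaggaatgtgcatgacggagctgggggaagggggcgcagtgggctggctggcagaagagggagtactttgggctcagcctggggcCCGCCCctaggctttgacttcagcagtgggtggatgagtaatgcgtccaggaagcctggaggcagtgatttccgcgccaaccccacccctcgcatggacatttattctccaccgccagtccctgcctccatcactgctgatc
The Col11a2 stretch held GC boxes starting at -80, -76 (overlapping the first) and -47 from the start, and the Timp1 stretch 1, at -142 on the opposite strand. A GC box was found in 30.5% of 33469 rat promoters of this length. The letters TATAAA, found in 12.9% of them on either strand, were in neither stretch. The Col2a1 promoter was not used here.

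The other fibrillar collagens were the chains of type V collagen, which sets the diameter of type I fibrils. Col5a3 measured 1.44, 1.26, 1.23 and 1.49 in controls and 1.31, 1.11, 1.18 and 1.09 after HI, a change of -0.18 (SE 0.111, adjusted p = 0.574). Only HI 1 reached into the range of the controls. Col5a1 ran from -0.28 to 0.21 in controls and from 0.05 to 0.54 after HI, with a change of 0.24 on its brighter probe and 0.17 on its second. Col23a1, a collagen that spans the cell membrane, ran from -3.38 to -2.69 in controls and from -3.29 to -2.10 after HI, highest in HI 4 and lowest in control 1. Its change of 0.14 (SE 0.268) had a 95% interval of -0.48 to 0.76, which includes 0. Of the basement membrane collagens only Col4a4 had a probe by the rule, and it was well above background on 1 array, that of control 2, at -1.87, against -7.49 to -4.62 on the others.

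Lamb2, the laminin chain of vascular and synaptic basement membranes, had the highest change of the 21 genes. It measured 0.18, 1.40, 1.15 and 1.21 in controls and 1.21, 2.09 and 1.53 in HI 1, HI 2 and HI 3. The spot on HI 4 was marked an outlier by the scanner software and entered as missing, so the change of 0.62 (SE 0.341, n = 4 and 3, adjusted p = 0.554 by limma) leaves that animal out. At its marked value the HI 4 spot would have measured -1.25, below every other array, and in the authors' deposited table, which keeps it, the change was -0.07. Control 1 was the lowest of the 7 arrays used, and the change was 0.36 without it and 0.39 without HI 2.

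Of 12 matrix metalloproteinases on the array 5 were measured, 1 above 0 and 4 below, and none passed. Mmp14 (MT1-MMP), a membrane-bound collagenase that also activates the Mmp2 proenzyme, measured 2.17, 2.44, 1.92 and 1.75 in controls and 0.56, 2.39, 1.59 and 1.48 after HI. HI 1, HI 3 and HI 4 were below all controls, HI 1 the farthest, and HI 2 was second only to control 2. The change was -0.57 (SE 0.359, 95% interval -1.39 to 0.26, adjusted p = 0.579). Without HI 2 it was -0.86 with an unadjusted p of 0.0222, which did not pass the adjusted threshold, and without HI 1 it was -0.25. Mmp2, gelatinase A, measured -2.94, -2.40, -3.41 and -3.18 in controls and -3.24, -3.02, -2.15 and -2.29 after HI, a change of 0.31 (SE 0.309, adjusted p = 0.617). Its highest values were in HI 3, HI 4 and control 2, so the order of arrays crossed the groups. The membrane-bound Mmp16 (-0.12) and Mmp24 (-0.06), the latter made mainly in brain, were highest in control 1 and had ranges of 0.64 and 0.81 over the 8 arrays. The second probe of Mmp16 had a change of 0.16, of opposite sign. Mmp23 measured 0.65 in HI 2 and -0.63 to 0.24 on the other arrays, with a change of -0.08 that was -0.39 without HI 2.

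The TIMPs, which inhibit these enzymes, were all measured. Timp1, a secreted inhibitor that reactive glia and fibroblasts produce, measured -0.07, -0.37, -0.55 and -0.40 in controls and -0.48, 1.11, -0.26 and -0.37 after HI. Only HI 2 was outside the range of the others, and the change of 0.35 (SE 0.346, adjusted p = 0.614) was -0.02 without it. Timp3, which binds to the matrix, ran the same way, at -1.60 in HI 2 and between -2.96 and -2.31 elsewhere, with a change of 0.24 that was -0.03 without HI 2. Timp2, which takes part in activating the Mmp2 proenzyme on the cell surface, ran from 5.44 to 6.02 in controls and from 5.34 to 5.83 after HI (-0.11, SE 0.166, 95% interval -0.50 to 0.27), and was lowest in HI 2. Of 3 ADAMTS proteases only Adamts5, an enzyme that cuts aggrecan, was measured. It was well above background on 3 of 4 control and all 4 HI arrays and ran from -4.31 to -3.57 and from -4.25 to -3.21, a change of 0.11 (SE 0.272, unadjusted p = 0.695).

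**Figure D2:**
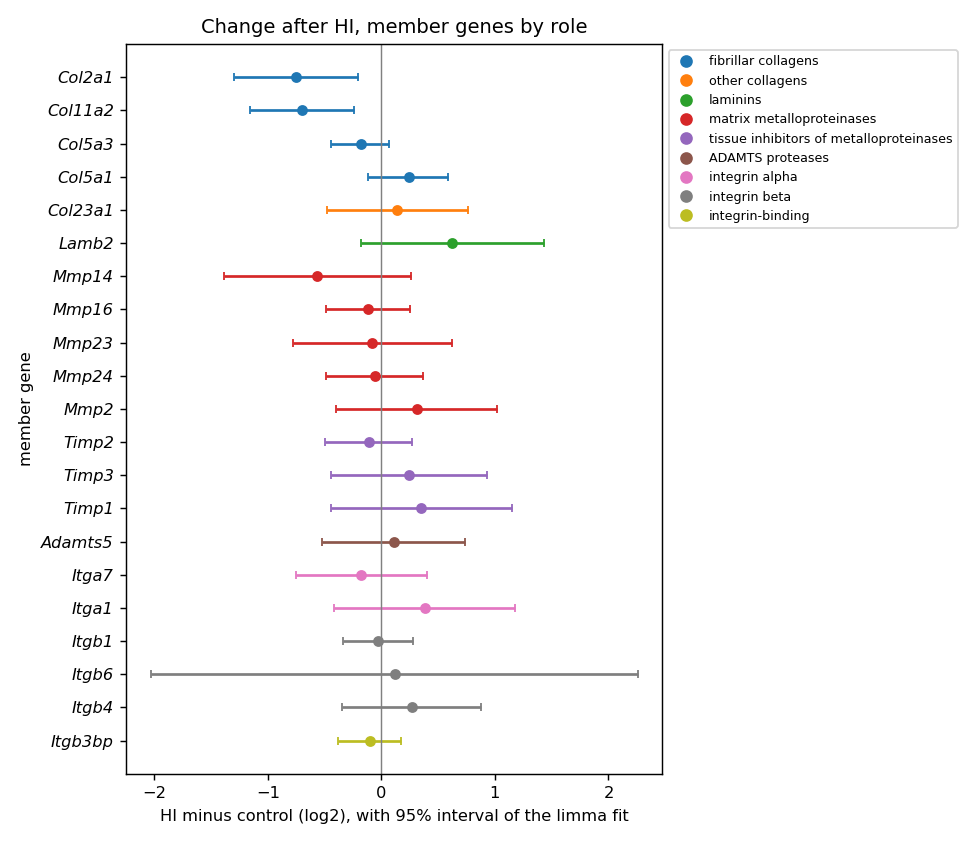
Log2 change, HI minus control (x axis), of each of 21 matrix genes, coloured by role, with the 95% interval of the limma fit (n = 4 arrays a group; 3 after HI for Lamb2). Only the intervals of Col2a1 and Col11a2 leave out 0 before adjustment, and Itgb6 has the widest interval, from -2.03 to 2.26.

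Of 5 integrin alpha chains 2 were measured. Itga1, which pairs with Itgb1 as a receptor for collagen and laminin, measured 2.49, 1.32, 1.20 and 1.02 in controls and 1.62, 2.47, 1.84 and 1.63 after HI. Control 1 was the highest array and the other 3 controls were below all HI arrays. The change was 0.38 (SE 0.347, 95% interval -0.42 to 1.18, adjusted p = 0.601), and 0.71 without control 1 (unadjusted p = 0.0136, adjusted p = 0.131), but 0.19 without HI 2. Itga7, a laminin receptor chain, ran from 4.10 to 5.23 in controls, highest in control 1, and from 4.09 to 4.49 after HI (-0.18, SE 0.25). Its second probe had a change of 0.30, so the 2 probes disagree in sign. The leukocyte alpha chains Itgad, Itgae and Itgal were well above background on no array. Itgam, the leukocyte alpha chain left out by the rule, was well above background on all 4 control and all 4 HI arrays. It ran from -3.17 to -2.07 in controls and from -2.04 to -1.52 after HI, without overlap (14.2% of all genes had such groups). Its change was 0.80 (SE 0.245, unadjusted p = 0.0112, adjusted p = 0.275 by limma).

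Of 5 integrin beta chains 3 were measured. Itgb1, the common partner of most matrix-binding alpha chains, ran from -1.50 to -1.35 in controls and from -1.70 to -1.14 after HI, a change of -0.03 (SE 0.135, 95% interval -0.34 to 0.28), the smallest among the members. Itgb4, the partner of the alpha-6 chain in laminin receptors, measured 2.55, 2.31, 2.28 and 2.02 in controls and 2.28, 3.37, 2.34 and 2.25 after HI. As with Timp1, HI 2 alone stood above the others, and the change of 0.27 (SE 0.267, adjusted p = 0.617) was 0.00 without it. Itgb3bp, which binds the tail of the beta-3 chain and is also a centromere protein, measured 1.13 in control 1 and 0.68 to 0.84 on the other 7 arrays (-0.10, SE 0.119).

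Itgb6, whose product pairs with the alpha-v chain of epithelial cells and activates TGF-beta, had the largest range over the 8 arrays among the members, 3.85. It measured -2.80, -0.08, -2.68 and -2.25 in controls and -2.57, -3.94, -0.47 and -0.37 after HI. Control 2, HI 3 and HI 4 were high, and HI 2 was the lowest. Its change of 0.12 (SE 0.931, adjusted p = 0.95) therefore has the widest interval, and it ran from -0.37 without HI 4 to 0.82 without HI 2. The choroid plexus marker Ttr, transthyretin, was highest in the same control 2, HI 3 and HI 4 (7.62, 8.00 and 7.83), at 3.86 in HI 2 and at -0.99 to 1.41 on the other 4. Folr1, a folate receptor of choroid plexus, measured 1.26, 1.45 and 1.36 in control 2, HI 3 and HI 4, and -4.06 to -2.31 on the other 5, including HI 2. Itgb6 and Folr1 were thus high on the same 3 arrays. The part of choroid plexus in the Itgb6 and Mmp2 values was not tested.

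**Figure D3:**
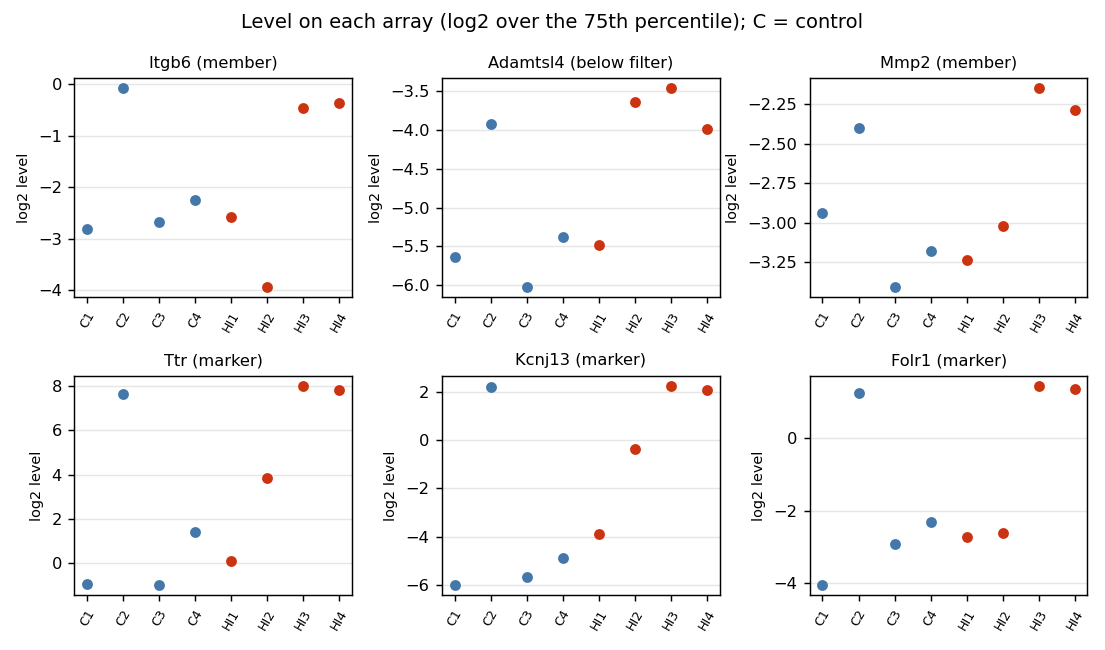
Level on each array (y axis, log2 over the array's 75th percentile; C1 to C4 controls, HI1 to HI4 after HI) of Itgb6, Adamtsl4, Mmp2 and 3 choroid plexus markers. The highest Itgb6 and Mmp2 values are in control 2, HI 3 and HI 4, as are those of Ttr, Kcnj13 and Folr1, and HI 2 is the lowest array for Itgb6 but not for Adamtsl4.

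HI 2 was the highest array for 7 of 21 members and the lowest for 4. Over the 20 members with a value on all arrays it was the highest for 6 (30%), against 12.8% of all genes, while control 1 was the highest for 6 (30%), against 45.3% of all genes. HI 2 was the lowest for 4 of these 20 members (20%), near the 17.4% of all genes. The 7 were Timp1, Timp3, Itgb4, Itgb1, Mmp23, Col5a1 and Lamb2, and the 4 were Col11a2, Itgb6, Itgb3bp and Timp2. Of the collagens left out by the rule, Col1a2 and Col3a1 were measured, and both were highest in HI 2 without overlap between groups. Col1a2, of type I collagen, measured 0.69 to 1.09 in controls, 1.46, 1.82 and 1.90 in HI 1, HI 3 and HI 4, and 5.28 in HI 2. Col3a1, of type III collagen, measured -1.57 to -1.11 in controls, -0.83, -0.47 and -0.33 in HI 1, HI 3 and HI 4, and 3.12 in HI 2. The 3 other HI arrays thus also lay above every control for both genes, whose adjusted p by limma was 0.507 and 0.516. The meningeal transporter Slc6a13 measured 2.35 in HI 2 and -1.51 to -1.12 elsewhere. The part of meningeal tissue in these values was not tested. Leaving out control 1 and HI 2 together, 5 of the 21 members had an unadjusted p under 0.05 (20.7% of all genes in that fit). These were Col11a2, Col2a1, Mmp14 and Mmp23, which were lower after HI, and Itga1, which was higher, and none passed the adjusted threshold.

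**Figure D4:**
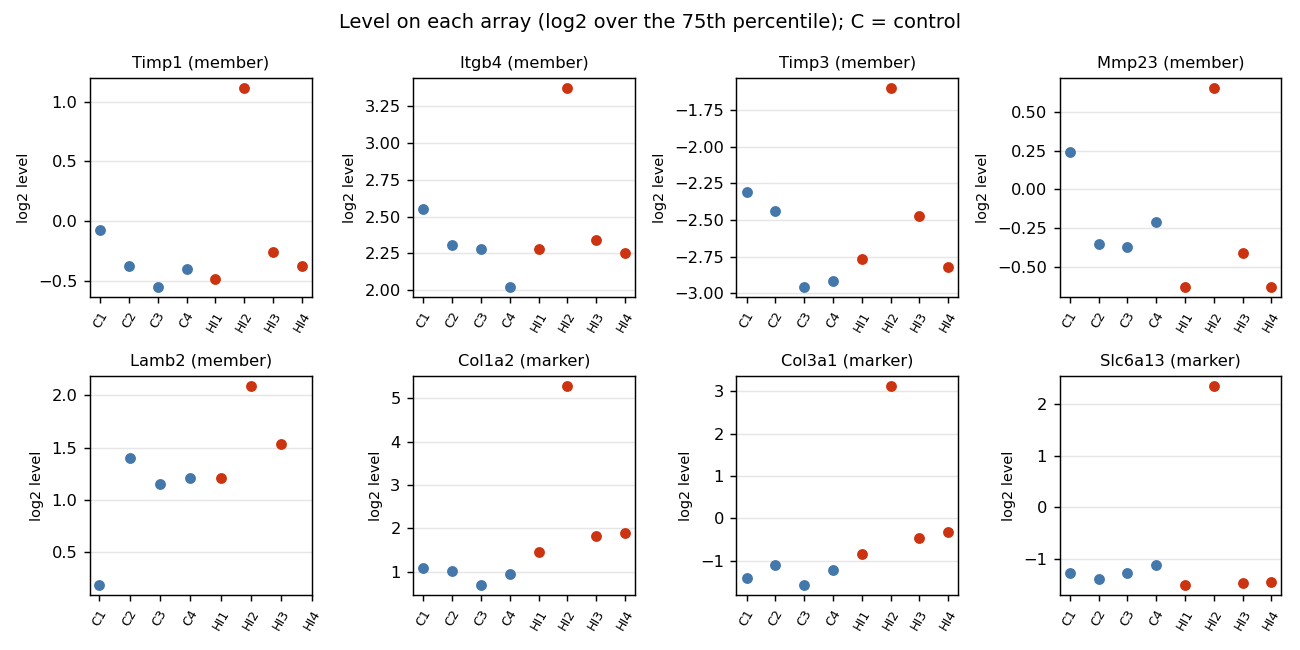
Level on each array (y axis, log2 over the array's 75th percentile; C1 to C4 controls, HI1 to HI4 after HI) of 5 matrix genes and of Col1a2, Col3a1 and Slc6a13, markers of meningeal fibroblasts. All 8 are highest in HI 2, and Lamb2 has no point for HI 4, whose spot was marked an outlier.

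Other genes of the same system were taken from a list of 65 that are no members, of which 30 were measured. None passed the adjusted threshold, and 24 lay above 0 and 6 below, where 10181 of all 21677 genes tested lay above 0. The median change was 0.19 where that of all genes was -0.03. Of these 30 genes, 15 were highest in HI 2. Without HI 2 the count was 20 above 0 and 10 below, with a median of 0.11. Without control 1 it was 24 above and 6 below, with a median of 0.12 where that of all genes was 0.00. Leaving out both arrays gave 22 above and 8 below, with a median of 0.08 (0.01 for all genes). Array weights gave 23 above and 7 below, with a median of 0.10 (0.00 for all genes). With median or quantile scaling the count was 28 above and 2 below, where the median of all genes moved to 0.05 and 0.02. All 7 measured enzymes and chaperones that modify collagen lay above 0. Serpinh1, the collagen chaperone Hsp47, measured 1.68, 1.91, 1.68 and 1.51 in controls and 1.92, 2.85, 2.26 and 2.12 after HI. Every HI array was above every control, and HI 2 was the highest. The change was 0.60 (SE 0.206, unadjusted p = 0.0203, adjusted p = 0.344), and 0.41 without HI 2. Pcolce, which enhances the cleavage of procollagen, also had groups that did not overlap, with means of -1.21 ± 0.21 and 0.06 ± 1.37 (SD, n = 4 each) and 2.11 in HI 2. Its change of 1.26 (SE 0.608, adjusted p = 0.516 by limma) was 0.58 without HI 2, with a smaller SE of 0.165 (unadjusted p 0.071 with and 0.0098 without HI 2; adjusted p = 0.349 without it). Of the 11 matrix glycoproteins and proteoglycans measured, 7 lay above 0, with fibronectin, Fn1, at 0.72 (SE 0.399) and at 1.39 in HI 2 against -0.82 to -0.28 on the others. All 7 measured integrin adhesion proteins lay above 0, from 0.02 for Ptk2, the focal adhesion kinase, to 0.51 for Bcar1. None of the 7 had an unadjusted p under 0.05 (limma). Bcar1 measured 0.28 in control 1 and 1.66 to 1.99 on the other arrays. Of the 5 measured regulators of matrix proteases 3 lay above 0. Furin, 1 of these regulators, had groups without overlap, as did Serpinh1 and Pcolce, but was lower after HI. Its change was -0.21 (SE 0.0978, adjusted p = 0.508 by limma). Of all genes, 14.2% had groups that did not overlap.

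Of the 16 genes that did not pass the filter, 11 were well above background on no array. These were Adamts1, Adamts17, Itgad, Itgae, Itgal, Itgb3, Mmp3, Mmp7, Mmp10, Mmp11 and Mmp12, and their low signal says only that these probes did not detect them here. The other 5 were Mmp9, Adamtsl4, Itgb5, Col4a4 and Mmp8. Mmp9, gelatinase B, was well above background on 2 control and 3 HI arrays and measured -6.00 in HI 2 against -4.50 to -3.74 elsewhere. Adamtsl4, a secreted matrix protein related to the proteases, measured -3.92 in control 2 and -3.63, -3.46 and -3.99 in HI 2, HI 3 and HI 4, and -6.03 to -5.38 on the other 4. Mmp8, the collagenase of neutrophils, was well above background on 1 array, that of HI 1, at -1.64 against -7.18 to -6.04 elsewhere.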

How the data were processed

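Cortex RNA of 4 control and 4 HI rats was hybridised to 1-colour Agilent arrays. Per the file headers, the deposited scanner output comes from Agilent Feature Extraction 9.5.3.1 and holds an intensity per spot (processed signal, background-subtracted within the array, and median spot and background signals) and flags for spots well above background, saturated or outlying. The authors' deposited table holds log2 values that, per array, had a correlation of at least 0.9997 with the scanner values used here once each probe was centred on its median over 8 arrays. Column medians were 0.48 (control 1) and -0.05 to 0.04 (the rest). Scale, centring and direction are thereby known.

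Control spots (1639 of 45018) were left out, outlier-flagged spots set to missing (87 probe values), spots of a probe averaged, and log2 processed signals reduced by the log2 of the array's 75th percentile. Where a probe has several spots, it counted as well above background on an array if most were. Of 41012 probes 24875 were kept, those well above background on all arrays of a group. No member spot was saturated. A gene was represented by its brightest kept probe. Accessions without version were matched to RefSeq transcripts of GRCr8 (10735 probes matched, 30277 did not), used for names only apart from the 2 printed promoter sequences, which are RefSeq's in GRCr8.

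Groups were compared with limma 3.58.1 (R 4.3.3; lmFit, eBayes) over all 21677 genes. A ± is the SD. The fit was tested on simulated data. The alternatives were 2 other scalings, normexp on the median spot signal (with 75th percentile or quantile scaling), the values deposited by the authors, 2 filters, averaging each gene's probes, a robust prior with an intensity trend, weights for arrays, the replicate number as a block, and dropping each array in turn or control 1 and HI 2 together. The named members were those at an unadjusted p under 0.05 or with groups that did not overlap, and in each role the one with the smallest p and the one with the largest range. The others were named for their role or after their values were seen. The members, lists, rules and alternatives were chosen with earlier results of these data known. The summed level of the oligodendrocyte marker list is not reported here.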

Additional observations from a re-analysis of the deposited data

Results flagged for a closer look

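In 2 genes a single HI animal stood apart from the other 3: HI 2 measured 1.11 for Timp1, where the others ran from -0.48 to -0.26, and 3.37 for Itgb4, where they ran from 2.25 to 2.34. Among the controls, control 1 measured 1.13 for Itgb3bp, against 0.75 to 0.80 in the other 3. Chance marks about 1 in 20 groups of 4 in this way, and 21 groups of the members named by rule were examined. Some of these members were named for the largest range in their role, so that rate need not hold for them.

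In 4 genes that did not pass the filter, an HI array on which the probe was well above background exceeded the highest control. Mmp8 measured -1.64 in HI 1, from a single spot with a median signal of 184.5 over a local background of 71.0 and no outlier mark, where the highest control was at -6.04. Adamtsl4 measured -3.46 in HI 3 (highest control -3.92), Mmp9 -3.74 in HI 3 (-3.89) and Itgb5 -4.48 in HI 4 (-4.57). In the fit without a filter on dim probes none of the 4 passed (limma, unadjusted p = 0.43 for Mmp8, 0.09 for Adamtsl4, 0.694 for Mmp9 and 0.261 for Itgb5), and the change of Mmp9 there was -0.20, lower after HI. Col4a4, well above background in control 2 alone, was also lower after HI in that fit. Its change was -2.30 (limma, unadjusted p = 0.0367, adjusted p = 0.561). Adamtsl4 also entered the fit without HI 1, with a change of 1.55 (unadjusted p = 0.0152, adjusted p = 0.446), having passed the filter there through the HI group, where it is high.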

How the results depend on the processing

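No member passed the adjusted threshold in 18 of 20 alternatives, and 1 (Col2a1) did with array weights and without control 1 (range 0 to 1 without single arrays). At an unadjusted p under 0.05 there were 2 in the reported fit, 1 with quantile scaling and with normexp and quantile scaling, 6 without control 1 and HI 2 together (including Mmp9, which passed the filter there through the HI group), and 2 to 3 without single arrays. The members' median, -0.03, ran from -0.09 to 0.11 over the alternatives. Over all genes the reported 199 calls became 1327 with array weights, 706 without control 1 and HI 2 together, and 116 to 793 without single arrays (793 without control 1). With the replicate number as a block, which the labels do not say pairs animals (correlations of same-numbered deviations -0.16 to 0.03), 69 genes and 0 members passed.

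Col11a2, Itga1 and Mmp14 kept their sign in every alternative, as did Col2a1. The other members named by rule changed sign somewhere, none past the threshold: Adamts5 (-0.12) and Col23a1 (-0.08) after normexp with 75th percentile scaling, Col23a1 and Itgb3bp (0.00 each) with array weights, Itgb3bp (0.02) without control 1 and HI 2 together, and Lamb2 (-0.07) in the authors' table. Without single arrays the range was -0.08 to 0.27 for Adamts5, -0.09 to 0.31 for Col23a1, 0.00 to 0.37 for Itgb4, -0.37 to 0.82 for Itgb6 and -0.02 to 0.51 for Timp1. The cause was not tested, apart from the HI 4 spot of Lamb2. A block for slide or scan could not be fitted, since each holds 1 group. Dim probes such as those of Adamts5 and Col2a1 lie near background.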
